A study of Mus musculus with 4 samples.

Results

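The costimulatory and checkpoint ligands are the surface proteins with which a macrophage tells a T cell, after antigen recognition, to respond or to stop. Their genes were taken here as Cd80, Cd86, Cd274, Pdcd1lg2, Icosl, Cd276, Cd40, Tnfsf9, Tnfsf4 and Cd83, and every probe set annotated to 1 of them alone was used. These were 10 of the 18193 genes with such probe sets, read by 17 of 34945 probe sets. Expression was measured in mouse bone marrow cells cultured for 5 days with M-CSF, the growth factor that turns marrow precursors into macrophages. The groups were Jmjd3-/- cells given lipopolysaccharide (LPS) at 100 ng/ml for 4 h, unstimulated Jmjd3-/- cells, wild-type cells given the same LPS, and unstimulated wild-type cells, with 1 array each. Jmjd3, which the Jmjd3-/- cells (called knockout below) are labelled as lacking, is a demethylase of histone H3 and the product of Kdm6b. LPS is the bacterial cell wall component that activates Toll-like receptor 4. The sources used here do not give the strain, age and number of the mice or the deleted stretch of Kdm6b.

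CD80 and CD86 belong to the B7 family and bind CD28, which drives T cells, and CTLA-4, which holds them back. Their relatives PD-L1 (Cd274) and PD-L2 (Pdcd1lg2) bind the inhibitory receptor PD-1, ICOS ligand (Icosl) binds ICOS, and B7-H3 (Cd276) has been given both stimulating and inhibiting roles. CD40 is the receptor through which T cells activate macrophages in return, while 4-1BB ligand (Tnfsf9) and OX40 ligand (Tnfsf4) are TNF family members that sustain T cells. CD83 keeps MHC class II and CD86 at the cell surface by opposing the ubiquitin ligase encoded by Marchf1. Toll-like receptor signals through NF-kB, and interferons, are known to induce many of these genes in macrophages and dendritic cells.

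Expression values are log2 RMA values of a gene's brightest probe set unless another is named, and differences are on that scale. A reading under log2 6 was treated as background, so the size of a difference that ends there is uncertain. The array medians lay between 4.15 and 4.24, and 32.1% to 34.5% of probe sets reached log2 6. With 1 array per group, no difference between a pair of arrays has a replicate check. The effect of LPS over both genotypes and that of genotype over both states were tested with limma in an additive model over 9385 genes, with standard errors (SE) and p-values adjusted by Benjamini and Hochberg (BH), and "rose" and "fell" are kept for genes that passed at 0.05. The model has 1 residual degree of freedom, and its error comes from how far the LPS responses of both genotypes lie apart, moderated across genes, so a gene that responds unequally passes less readily. The labels do not say whether the arrays came from separate animals or cultures, so the p-values may measure technical spread. Kdm6b read 10.82 and 9.82 in knockout cells with and without LPS, against 11.23 and 10.33 in wild-type cells, on a probe set of the less specific class. A dimmer probe set went the other way, with 6.07 and 5.35 in the knockout, against 5.22 and 4.71 in wild type, 3 of these readings being background. Since the deleted stretch is unknown, neither settles the genotype labels.

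The cell type markers in the RNA differed between genotypes. Of 9 macrophage markers measured, all 9 reached log2 6 on both knockout arrays and 8 on both wild-type arrays, where Cd163 was under it. The log2 of their summed level lay between 15.22 and 15.34 on the 4 arrays. Single markers differed all the same: Cd163 (4.57) and Fcgr1 (0.76) rose in the knockout and Itgam (-1.04) fell. Over all genes tested 6.39% rose in the knockout and 3.12% fell, and the marker counts below stand against these shares. The stromal list summed to 14.76 and 15.02 in knockout cells with and without LPS, against 9.95 and 9.65 in wild-type cells, and of its 14 markers 13 and 12 reached the floor in the knockout, against 6 and 4 in wild type. The granulocyte and precursor list summed to 15.22 and 15.21 in the knockout, against 12.22 and 11.76, and 5 of its 11 measured markers (Ngp, Mpo, Elane, Prtn3 and Ltf) were under the floor on both wild-type arrays. The sums of both lists were thus higher on both knockout arrays than on both wild-type arrays. Of the stromal markers tested 12 of 13 rose in the knockout and 0 fell, and of the granulocyte markers 9 of 11 rose and 1 fell, Mmp8, which read 7.14 and 8.71 in the knockout, against 10.55 and 11.14 in wild type. The dendritic cell list summed to 12.19 and 11.63 in the knockout and to 12.40 and 10.95 in wild type, and 5 of its 11 measured markers (Flt3, Xcr1, Siglech, Cd209a and Itgae) were under the floor on all 4 arrays. Of 9 T, B and NK cell markers 0 reached the floor in the knockout and 3 did in wild type (Cd3e, Cd3d and Cd3g), with sums of 7.32 and 7.22 against 9.04 and 8.77, and the B cell markers Cd79a and Ms4a1 were under it on all 4 arrays. Mast cell, basophil and eosinophil markers summed to 10.97 and 9.23 in the knockout, against 10.63 and 9.37. These sums cover unequal changes. Of 6 markers tested 1 rose in the knockout, Prg2 (4.91), and 3 fell, Fcer1a (-3.75), Mcpt8 (-2.07) and Siglecf (-1.85). Hdc, which rose with LPS, read 10.44 and 5.86 in the knockout, against 9.53 and 6.07 in wild type. The part these markers' cells had in the genotype differences of the ligand genes was not tested, and in such bulk RNA fewer cells of a type and less RNA per cell cannot be told apart.

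**Figure D1:**
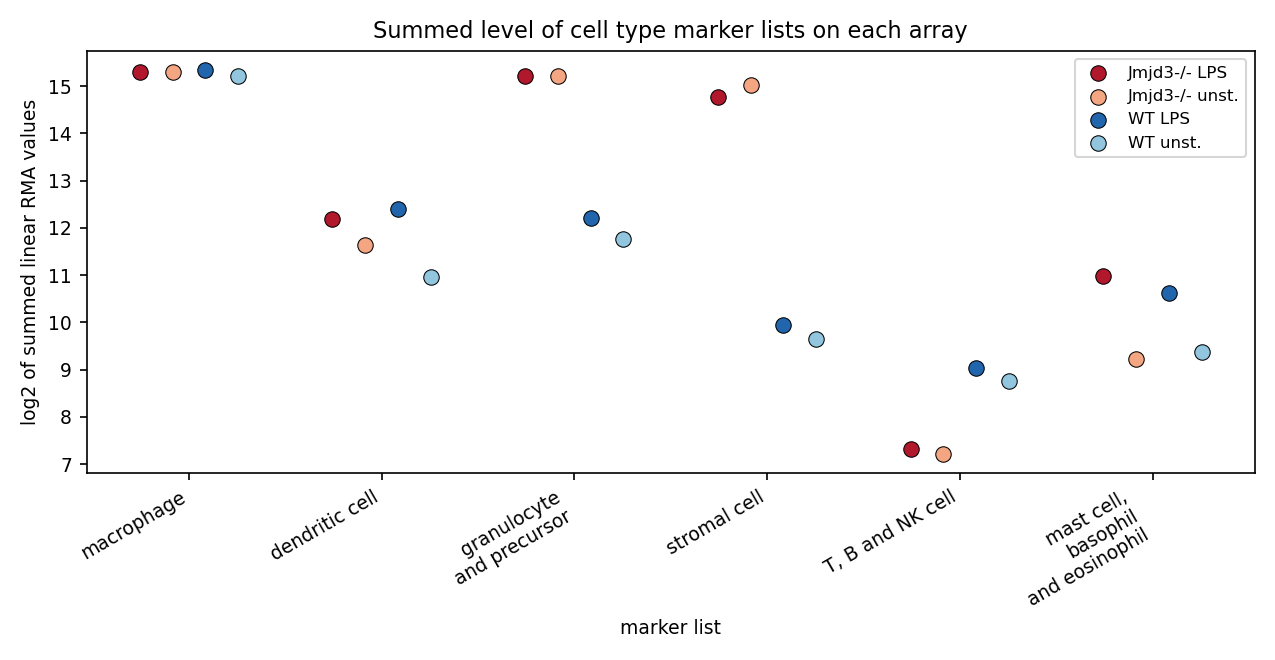
Level of 6 marker lists on each array, as log2 of the summed linear RMA values (y axis). Each point is 1 array, both knockout arrays standing left of both wild-type arrays, and sums compare arrays within a list only. The macrophage points lie together between 15.22 and 15.34, while the stromal points lie at 14.76 and 15.02 in the knockout and at 9.95 and 9.65 in wild type.

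Over both genotypes, 7 of the 10 ligand genes rose with LPS and 0 fell, where 11.2% of all genes tested rose and 18.8% fell. Cd40 rose most (5.15), followed by Cd86 (3.07), Tnfsf9 (2.90), Tnfsf4 (2.81), Cd83 (2.31), Cd80 (2.17) and Icosl (1.93). Cd274, Pdcd1lg2 and Cd276 did not pass, with values of 1.83, 1.12 and 0.45. The median over the 10 genes was 2.24, against -0.22 over all genes tested. When the genotype term was left out of the model, 1 of the 7 (Cd40) still passed. The genotype difference then counts as error, and the SE of Cd83 went from 0.18 to 0.86. That fit therefore cannot judge the LPS effect of genes that differ by genotype. Cd86, Icosl, Tnfsf9 and Tnfsf4, whose genotype effects did not pass, were also lost. The SE of Tnfsf9 went only from 0.33 to 0.38 (limma, BH-adjusted p = 0.0525). The LPS calls of such genes thus depended on the model.

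Over both states, 2 of the 10 genes rose in the knockout, Cd276 (2.25) and Cd83 (1.69), where 6.39% of all genes tested rose. Another 2 fell, Pdcd1lg2 (-4.15) and Cd80 (-1.33), where 3.12% of all genes tested fell. The median over the 10 genes was -0.30, against 0.05 over all genes tested. The other 6 lay between -1.33 (Cd274) and 0.91 (Icosl) and did not pass. When the LPS term was left out of the model, 0 of the 10 passed. The LPS difference then counts as error, and the SE of Cd83 went from 0.18 to 1.17. That fit therefore cannot judge the genotype effect of genes that respond to LPS. Pdcd1lg2 and Cd276, whose LPS effects did not pass, were also lost. Their SE went from 0.41 to 0.73 and from 0.40 to 0.53, so their genotype calls depended on the model.

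**Figure D2:**
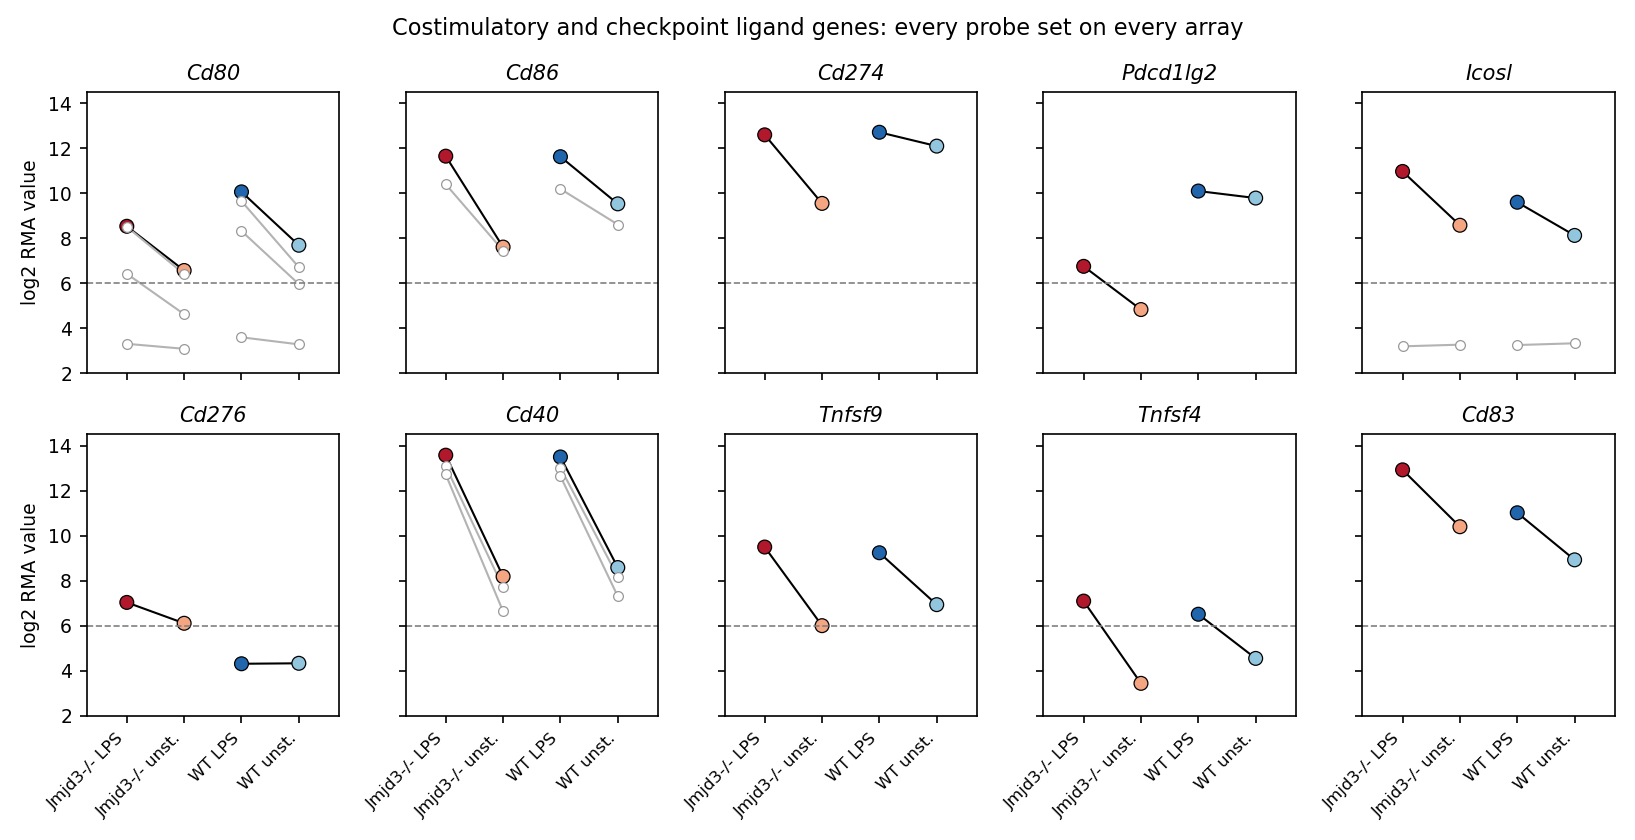
Log2 RMA values (y axis) of all 17 probe sets of the 10 genes on each of the 4 arrays (x axis: knockout with LPS, knockout unstimulated, wild type with LPS, wild type unstimulated). Filled points are the brightest probe set of a gene, open points its other probe sets, lines join the arrays of a genotype, and the dashed line is log2 6. Cd40 stands between 13.50 and 13.58 with LPS and between 8.18 and 8.58 without, while Pdcd1lg2 lies at 6.75 and 4.83 in the knockout and at 10.10 and 9.79 in wild type.

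Of both CD28 ligand genes, Cd80 changed with LPS and with genotype. Cd80 read 8.53 in knockout cells with LPS and 6.57 without, against 10.06 and 7.69 in wild-type cells. Both LPS arrays were above both unstimulated arrays, and in each state the knockout array was the lower one. Cd80 rose with LPS by 2.17 (SE 0.20, limma, BH-adjusted p = 0.00567, up in each genotype) and fell in the knockout by 1.33 with the same SE (limma, BH-adjusted p = 0.0244, down in each state). In folds, the knockout was 2.89-fold lower with LPS and 2.18-fold lower without. Cd80 has 4 probe sets, of which 3 reached log2 6, and over these 3 the knockout minus wild type difference lay between -1.90 and -1.14 with LPS and between -1.34 and -0.30 without. The -1.34 came from a probe set that read background without LPS in both genotypes (4.62 in the knockout and 5.96 in wild type). The others gave -1.12 and -0.30. The direction was therefore shared by the 3 probe sets with LPS. Without LPS it was shared by those above background, while the size was not. With the mean of all 4 probe sets the genotype effect of -0.98 no longer passed (limma, BH-adjusted p = 0.0760). The fourth probe set stayed between 3.09 and 3.60 on all arrays.

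Cd86, whose product shares both receptors with CD80, took another course. It read 11.65 in knockout cells with LPS and 7.61 without, against 11.62 and 9.53 in wild-type cells. Both LPS arrays stood together, 0.02 apart, and the unstimulated knockout array stood alone at the bottom, 3.79-fold below unstimulated wild type. The LPS difference was thus 16.5-fold in the knockout and 4.27-fold in wild type. Its dimmer probe set gave 10.40 and 7.45 in the knockout, against 10.19 and 8.61 in wild type, the same order without LPS with a smaller gap (-1.16, against -1.92 on the brighter one). Cd86 rose with LPS by 3.07 (SE 0.47, limma, BH-adjusted p = 0.0142, up in each genotype), and its genotype effect of -0.95 did not pass (limma, BH-adjusted p = 0.308). Whether its LPS responses differ between genotypes cannot be tested with 1 array per group.

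Icosl, the ligand of the T cell costimulator ICOS, read 10.97 in knockout cells with LPS and 8.58 without, against 9.60 and 8.12 in wild-type cells. The knockout array was the higher one in both states, by 1.37 with LPS and 0.45 without. Icosl rose with LPS by 1.93 (SE 0.28, limma, BH-adjusted p = 0.0123, up in each genotype), and its genotype effect of 0.91 did not pass (limma, BH-adjusted p = 0.128). Its second probe set lay between 3.19 and 3.33 on all arrays, under the floor, and showed neither difference. With the mean of both probe sets the LPS effect was 0.93 and still passed (limma, BH-adjusted p = 0.0416), while the wild-type LPS difference (0.70) and the genotype difference with LPS (0.66) were no longer 2-fold.

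The genes of the PD-1 ligands are neighbours in the RefSeq gene table, with 0 protein-coding genes between them. Cd274, which encodes PD-L1, read 12.60 in knockout cells with LPS and 9.55 without, against 12.71 and 12.09 in wild-type cells. The unstimulated knockout array was the low one, 5.84-fold below unstimulated wild type, and the other 3 arrays lay within 0.62 of each other. With LPS the genotypes differed by -0.11, less than the 0.18 by which probe sets of the same gene typically varied in that comparison (median SD over 3886 genes). The LPS difference was 8.27-fold in the knockout and 1.53-fold in wild type. Neither effect passed, with 1.83 for LPS (SE 0.57, limma, BH-adjusted p = 0.0675) and -1.33 for genotype (limma, BH-adjusted p = 0.241). After quantile normalisation of the arrays the LPS effect, 1.80, did pass (limma, BH-adjusted p = 0.0420).

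Pdcd1lg2, which encodes PD-L2, the PD-1 ligand associated with alternatively activated macrophages and dendritic cells, was the gene with the widest genotype gap of the 10. It read 6.75 in knockout cells with LPS and 4.83, under the floor, without, against 10.10 and 9.79 in wild-type cells. Both knockout arrays lay below both wild-type arrays, and within wild type LPS made a difference of 0.31. The knockout was 10.2-fold lower with LPS, and 31.0-fold lower without, or 13.8-fold when the background reading is set to log2 6. Pdcd1lg2 fell in the knockout by 4.15 (SE 0.41, limma, BH-adjusted p = 0.00685, down in each state). Its LPS effect of 1.12 did not pass (limma, BH-adjusted p = 0.0993), and the knockout LPS difference of 1.92 shrinks to 0.75 with the same floor. Where 3.12% of all genes tested fell in the knockout and 6.39% rose, 2 of 6 dendritic cell markers past the floor fell and 0 rose. These were Ccr7, carried by migrating dendritic cells and inducible in macrophages, which read 7.25 and 3.17 in the knockout, against 9.64 and 6.17 in wild type, and Dpp4 (-1.31). Of the other 4, Zbtb46, Batf3 and Ly75 had effects of -1.19, -1.47 and -0.92 and Fscn1 one of 0.83, none of which passed. Their part in the Pdcd1lg2 difference was not tested.

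The RefSeq promoter table (build GRCm38.p6) held a window for 5 of the 10 genes, from 250 bases before to 50 after a listed transcription start. Of the 4 genes 2-fold or more lower in the unstimulated knockout, the 3 with a window (not Cd86) are shown, 5′ to 3′ on the gene's strand, with matches to any of 4 searched motifs in capitals.
Cd274: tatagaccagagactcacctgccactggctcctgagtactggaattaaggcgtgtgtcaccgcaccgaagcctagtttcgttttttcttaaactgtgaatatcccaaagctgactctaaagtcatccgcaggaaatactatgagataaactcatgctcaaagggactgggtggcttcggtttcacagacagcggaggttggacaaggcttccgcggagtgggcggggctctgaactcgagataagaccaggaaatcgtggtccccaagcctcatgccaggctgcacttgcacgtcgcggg
Pdcd1lg2: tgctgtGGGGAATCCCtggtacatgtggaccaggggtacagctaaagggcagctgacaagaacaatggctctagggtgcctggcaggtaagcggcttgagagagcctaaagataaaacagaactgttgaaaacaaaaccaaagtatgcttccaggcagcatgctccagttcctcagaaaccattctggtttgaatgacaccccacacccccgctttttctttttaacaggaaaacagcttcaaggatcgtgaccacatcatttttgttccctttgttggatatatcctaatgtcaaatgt
Cd80: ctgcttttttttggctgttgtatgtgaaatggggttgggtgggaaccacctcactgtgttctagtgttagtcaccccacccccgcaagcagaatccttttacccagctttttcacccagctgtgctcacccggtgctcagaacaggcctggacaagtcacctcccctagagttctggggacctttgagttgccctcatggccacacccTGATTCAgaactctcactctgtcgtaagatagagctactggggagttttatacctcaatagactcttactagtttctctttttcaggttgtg
They lie on the plus strand at chr19:29367188-29367487 (Cd274), chr19:29410669-29410968 (Pdcd1lg2) and chr16:38458683-38458982 (Cd80). The motifs, searched on both strands, were the NF-kB consensus (GGGRNYYYCC), the STAT motif GAS (TTCNNNGAA), the interferon response core (GAAA, 2 bases of any kind, GAAA) and AP-1 (TGANTCA). R stands for A or G, Y for C or T and N for any base, and no matches overlapped. The Pdcd1lg2 window held 1 NF-kB match, which lies on the opposite strand. On the gene's strand it reads GGGGAATCCC and begins at base 7. The Cd80 window held 1 AP-1 match, TGATTCA, which begins at base 209. Over all 32851 windows of this length 5.81% held the NF-kB consensus, 8.30% GAS, 3.44% the interferon response core and 7.81% AP-1. The windows of Cd274, Icosl and Cd276 held 0 matches, which says only that these letters are not in these 300 bases.

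Cd276, which encodes B7-H3, read 7.03 in knockout cells with LPS and 6.11 without, against 4.31 and 4.33 in wild-type cells, both under the floor. Only the knockout arrays gave a reading above background, the unstimulated one just so. Cd276 rose in the knockout by 2.25 (SE 0.40, limma, BH-adjusted p = 0.0344, up in each state), and its LPS effect of 0.45 did not pass (limma, BH-adjusted p = 0.415). With background readings set to log2 6 the genotype difference was 1.03 with LPS and 0.11 without, and after adding 64 to the linear values its genotype effect of 0.94 no longer passed (limma, BH-adjusted p = 0.0570). B7-H3 is known from fibroblasts and other stromal cells. Of 13 stromal markers tested 12 also rose in the knockout, where 6.39% of all genes did, and Dcn (0.84) did not pass. Among the 12, Col1a1 read 11.87 and 12.35 in the knockout, against 6.30 and 5.84 in wild type, and Col3a1 11.32 and 11.22, against 5.37 and 4.83. Within the knockout Cd276 read higher with LPS, while the stromal list summed to 14.76 with LPS and 15.02 without. The part of stromal cells in the Cd276 difference was not tested.

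Cd40, the receptor for T cell help, had the widest LPS difference of the 10 and hardly any genotype difference. It read 13.58 in knockout cells with LPS and 8.18 without, against 13.50 and 8.58 in wild-type cells. Both LPS arrays stood far above both unstimulated arrays and within 0.08 of each other. The LPS difference was 42.0-fold in the knockout and 30.2-fold in wild type, and Cd40 rose by 5.15 (SE 0.18, limma, BH-adjusted p = 0.00177, up in each genotype). Its genotype effect was -0.16 (SE 0.18, limma, BH-adjusted p = 0.636). All 3 probe sets reached the floor on every array, and their LPS difference lay between 5.39 and 6.09 in the knockout and between 4.84 and 5.34 in wild type, so that on each the knockout difference was the larger one, by 0.48 to 0.74.

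Both TNF family ligand genes rose with LPS. Tnfsf9, the 4-1BB ligand gene, read 9.50 in knockout cells with LPS and 6.001 without, against 9.24 and 6.93 in wild-type cells. The genotypes were 0.25 apart with LPS, and without it the knockout array was the lower one by 0.93. Tnfsf9 rose with LPS by 2.90 (SE 0.33, limma, BH-adjusted p = 0.00795, up in each genotype). Tnfsf4, the OX40 ligand gene, read 7.09 in knockout cells with LPS and 3.44 without, against 6.51 and 4.55 in wild-type cells, so that both unstimulated readings were background. It rose with LPS by 2.81 (SE 0.51, limma, BH-adjusted p = 0.0206, up in each genotype). Counted from log2 6, its LPS difference was at least 2.13-fold in the knockout and at least 1.42-fold in wild type. The genotype effects, -0.34 for Tnfsf9 and -0.26 for Tnfsf4, did not pass (limma, BH-adjusted p = 0.579 and 0.792), and that of Tnfsf4 turned to 0.07 with 64 added to the linear values.

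Cd83 was the member that changed with both factors in the same direction. It read 12.93 in knockout cells with LPS and 10.40 without, against 11.02 and 8.93 in wild-type cells. The knockout array was the higher one in each state, 3.75-fold with LPS and 2.77-fold without, and both LPS arrays were above both unstimulated arrays. Cd83 rose with LPS by 2.31 (SE 0.18, limma, BH-adjusted p = 0.00383, up in each genotype) and in the knockout by 1.69 with the same SE (limma, BH-adjusted p = 0.00843, up in each state). Marchf1, whose ligase CD83 opposes, went the other way: it read 9.93 and 9.47 in the knockout, against 10.95 and 10.78 in wild type, and fell in the knockout by 1.17 (limma, BH-adjusted p = 0.0232, down in each state).

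The LPS difference reached 2-fold upward in 9 of 10 genes in the knockout, where 11.0% of all genes did, the exception being Cd276 at 0.93. In wild type it did so in 7 of the 9 genes past the floor, where 9.86% of all genes did, and Cd274 (0.62) and Pdcd1lg2 (0.31) were the exceptions. With the mean of a gene's probe sets the wild-type count was 6. None of the 10 was 2-fold lower in either genotype, where 15.5% of all genes were in the knockout and 14.3% in wild type. The medians were 2.79 over 10 genes in the knockout and 2.09 over 9 genes in wild type, against -0.26 and -0.19 over all genes. The knockout LPS difference was the larger one in 9 of the 10 genes, Cd80 being the exception. How many of all genes did so was not counted. The median of the knockout minus the wild-type LPS difference was 1.07 over the 10 genes and -0.03 over all genes tested. In Pdcd1lg2, Cd276 and Tnfsf4 some of the readings compared were background. The knockout LPS difference exceeded that of wild type by 2-fold or more in 5, Cd274 (2.43), Cd86 (1.95), Tnfsf4 (1.69), Pdcd1lg2 (1.61) and Tnfsf9 (1.19). Over all genes 5.19% did so and 4.73% went the other way by as much. With background readings set to log2 6 this count was 3, and after adding 64 to the linear values it was 2. These differences have no error estimate.

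**Figure D3:**
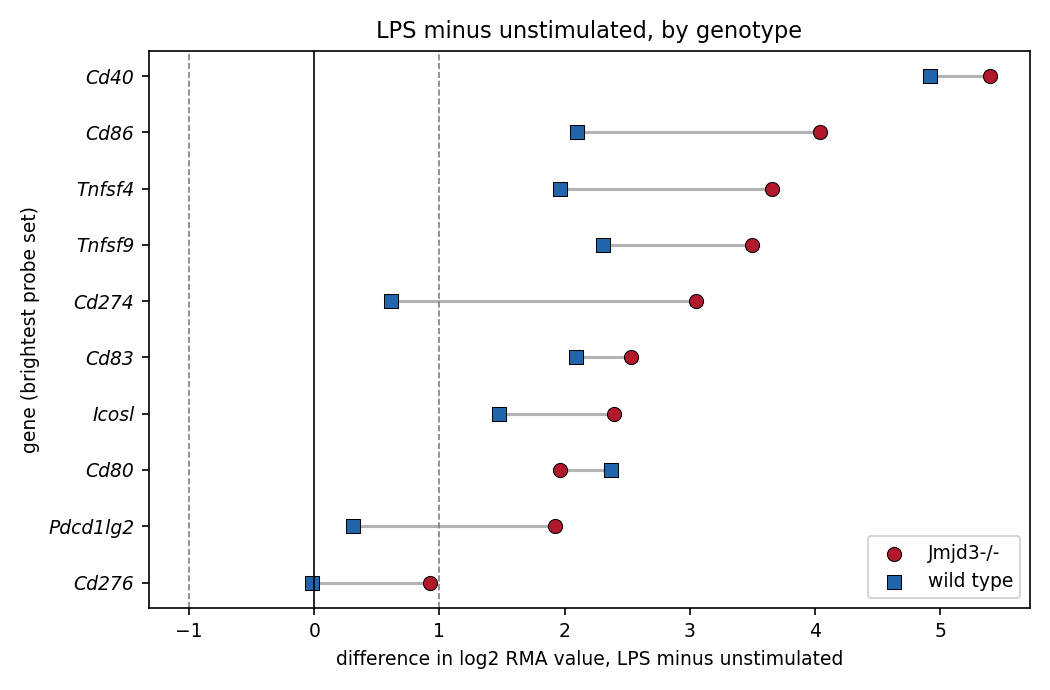
LPS minus unstimulated difference in log2 RMA value (x axis) of each gene's brightest probe set (y axis), circles for the knockout and squares for wild type, 1 pair of arrays each. Dashed lines mark 2-fold. The circle lies farthest to the right of the square in Cd274 (3.05 against 0.62), and to its left in Cd80 (1.97 against 2.37).

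The knockout was 2-fold or more higher with LPS in 3 of 10 genes, Cd276 (2.73), Cd83 (1.91) and Icosl (1.37), and lower in 2, Pdcd1lg2 (-3.35) and Cd80 (-1.53), where 9.76% and 5.65% of all genes were. Without LPS it was higher in 2 of the 9 genes past the floor, Cd276 (1.78) and Cd83 (1.47), and lower in 4, Pdcd1lg2 (-4.96), Cd274 (-2.55), Cd86 (-1.92) and Cd80 (-1.12), where 9.54% and 5.74% of all genes were. Of these 4, Pdcd1lg2 and Cd80 were also 2-fold lower with LPS, whereas Cd274 (-0.11) and Cd86 (0.02) were not. The median was 0.17 with LPS and -0.93 without, against 0.04 and 0.07 over all genes. The comparisons by genotype and by state share their arrays, so they are not independent of each other.

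**Figure D4:**
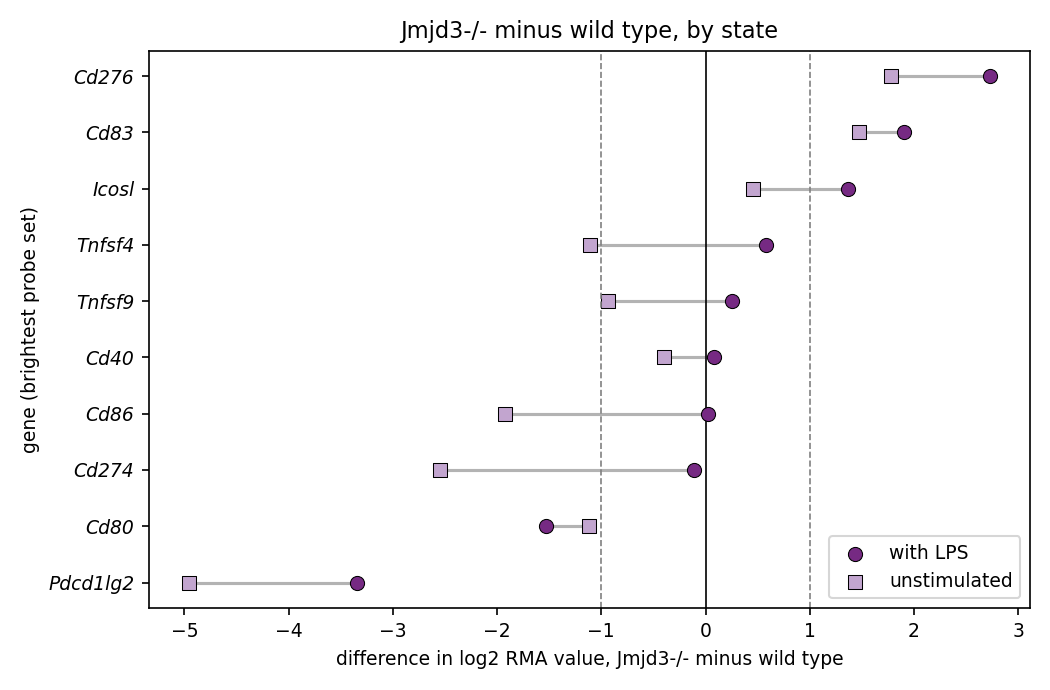
Knockout minus wild type difference in log2 RMA value (x axis) of each gene's brightest probe set (y axis), circles with LPS and squares without, 1 pair of arrays each. Dashed lines mark 2-fold. Cd274 and Cd86 lie at -2.55 and -1.92 without LPS and near 0 with it, while Pdcd1lg2 lies left of the dashed line and Cd276 and Cd83 right of it in both states.

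Other genes of the same pathways were read from 4 lists. Their counts stand against 11.2% of all genes tested that rose with LPS, 18.8% that fell with it, 6.39% that rose in the knockout and 3.12% that fell there. Of 15 further costimulatory and checkpoint ligand genes tested, 6 rose with LPS and 2 fell, those that fell being no larger a share than among all genes. The largest increases were in Slamf1 (3.44), a homophilic receptor of lymphocytes and macrophages, Tnfsf8 (3.08), the CD30 ligand gene, Nectin2 (2.36), a ligand of the receptors DNAM-1 and TIGIT, and Cd200 (2.10), which restrains myeloid cells. Without LPS, Slamf1 (3.65 in the knockout, 3.88 in wild type) and Nectin2 (5.96 and 5.69) read background. Tnfsf8 reached the floor with LPS in wild type alone (7.88). The sizes of these increases are therefore uncertain. Vsir, which encodes the B7-like checkpoint protein VISTA, fell with LPS by 2.72 and rose in the knockout by 1.26, reading 8.06 and 10.39 in the knockout, against 6.41 and 9.51 in wild type. The other gene that fell with LPS was Ceacam1 (-0.89), and the other that rose in the knockout was Nectin3 (6.32 and 7.28, against 4.04 and 3.56 in wild type), while 0 of the 15 fell there.

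Of 6 genes past the floor among those of the receptors and partners, Btla (1.98) rose with LPS and Havcr2 (-1.65), the TIM-3 gene, fell. Btla reached the floor with LPS in wild type alone (7.39), so the size of its increase is uncertain. Havcr2 rose in the knockout (1.05) and Icos (-2.32) fell there, Icos having reached the floor with LPS in wild type alone. Cd3e, Cd3d and Cd3g, which T cells carry, reached the floor on the wild-type arrays as Icos did on 1 of them, and their part in it was not tested.

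Of 12 genes that act downstream of CD40 or in the alternative NF-kB pathway, 9 rose with LPS and 0 fell. Traf1 (4.87), an adaptor recruited to TNF family receptors, Nfkb2 (2.98), the precursor gene of the alternative pathway, Tnfaip3 (2.96), the gene of the feedback inhibitor A20, and Nfkbie (2.30), an NF-kB inhibitor gene, had the largest values. In the knockout Traf5 fell (-1.93) and 0 of the 12 rose. Of 16 genes known to regulate these ligands, 7 rose with LPS, led by Rel (3.50), an NF-kB subunit gene, Jak2 (2.15), Irf1 (1.87), an interferon-induced factor known to bind the PD-L1 promoter in human cells, and Stat3 (1.71), and 2 fell, Cmtm4 (-1.52) and Ciita (-1.03). In the knockout 3 of the 16 fell, Irf4 (-2.79), Ciita (-1.88) and Marchf1 (-1.17), and 0 rose. Irf1 read 11.63 and 8.91 in the knockout, against 11.57 and 10.56 in wild type, and like Cd274 was lower in the knockout without LPS. Its genotype effect of -0.80 did not pass (limma, BH-adjusted p = 0.331). Without LPS 5 of the 16, Irf1 among them, were 2-fold or more lower in the knockout and 0 higher. Over all genes 5.74% were lower and 9.54% higher. The part of Irf1 in the Cd274 difference was not tested.

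The genes most like a member were sought by the distance between profiles centred on each gene's mean over the 4 arrays. Those nearest to Cd274 were Il1rn (0.28), which encodes the interleukin-1 receptor antagonist, and Exoc3l4 (0.33). Nearest to Cd86 were Zbp1 (0.28) and Irgm1 (0.29), both interferon-inducible, and nearest to Cd40 were Usp18 (0.22) and Ifnb1 (0.31), the interferon beta gene. Pdcd1lg2 had no gene as close: its nearest were Csf2 (0.81), the GM-CSF gene, and F10 (0.82), the coagulation factor X gene. Those of Cd276 were Igfbp5 (0.27) and Tbx15 (0.34), those of Cd83 Otud1 (0.14) and Aplnr (0.15), and those of Cd80 Btla (0.31) and Ak4 (0.41). Tnfsf9 was nearest to Stat2 (0.13) and Parp14 (0.13), Tnfsf4 to Rgl1 (0.14) and Gpr84 (0.17), and Icosl to Hmgn3 (0.21) and Bnip5 (0.30). With 4 arrays these are descriptions of shape. Some neighbours reached log2 6 on a single array, so most of their shape lies in background. These were Btla in wild type with LPS (7.39), and Tbx15 (6.08), Aplnr (7.41) and Bnip5 (6.96) in the knockout with LPS.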

How the data were processed

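The deposited values are log2 probe set values of 4 Affymetrix arrays, made by the authors with RMA, per the submitters' processing notes. The sources used here do not give the RMA version or the arrays run with these. Per the labels' protocols, RNA was Trizol-extracted and labelled with NuGEN Ovation. The distributions of the 4 arrays were nearly equal, with at most 0.34 between values of equal rank.

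Of 45101 probe sets, 34945 named 1 gene outside the 64 controls, and for 34741 the gene identifier matched RefSeq (GRCm38.p6). Probe sets with several genes (932) or none here were left out. A gene's brightest probe set by mean stood for it. The fit used limma 3.58.1 in R 4.3.3 with intensity trend and a prior of 3.84 degrees of freedom, on genes at or above log2 6 on an array, tested on simulated data. Unadjusted, 4221 genes for LPS and 2287 for genotype had a p under 0.05. Differences between pairs of arrays had no test, and 2-fold was counted where the higher array reached log2 6. The number of arrays, 1 per group, limits the precision. Python 3.11.15, numpy 2.4.6, pandas 2.3.3 and scipy 1.17.1 were used.

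The members and lists were chosen with earlier results of these data known. All members were named in full. List genes were named by the largest absolute effect among those that passed, up to 4 per effect, and for members spanning log2 2 or more the 2 nearest profiles were named. Irf1 and Marchf1 levels and the marker genes given beside Pdcd1lg2 and Cd276 were picked with their values in view. Listed genes with no one-gene probe set are not analysed here. Alternatives changed the floor, the gene level, the variance prior, the scaling, the pseudocount and the model.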

Additional observations from a re-analysis of the deposited data

Results flagged for a closer look

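In 3 of the 10 genes the knockout minus wild type difference had opposite signs in the 2 states, with the higher array of each pair past log2 6. Cd86 differed by 0.0241 with LPS and by -1.92 without. Cd40 differed by 0.0801 with LPS and by -0.40 without. Tnfsf9 differed by 0.25 with LPS and by -0.93 without. For Cd86 and Cd40 the difference with LPS was smaller than the 0.18 by which probe sets of the same gene typically varied in that comparison. How many of all genes had opposite signs was not counted. The difference between states was not tested, since each group has 1 array.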

How the results depend on the processing

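With the other factor left out of the model, genes that rose with LPS numbered 1 of the 10 in place of 7, and 183 of all genes in place of 1054, with 84 in place of 1769 falling. For genotype 0 of the 10 rose in place of 2 and 0 fell in place of 2, with 100 of all genes in place of 600 and 11 in place of 293. With a floor of log2 8, 6331 genes were tested in place of 9385, and 1166 of the 6331 fell with LPS. For genotype 1 of the 10 and 298 of all genes tested at that floor rose and 163 fell. With the mean of a gene's probe sets, 1 of the 10 fell in the knockout, and of 7819 genes tested 341 rose and 189 fell. With 64 added to the linear values, 1 of the 10 rose in the knockout, and the Tnfsf4 genotype effect turned to 0.0736. With every probe set fitted, 15527 probe sets were tested in place of 9385 genes. Of these probe sets 1981 rose and 2879 fell with LPS, and 520 fell in the knockout. Where the number tested differs, a change in a count is not by itself a change in the share. Cd276 alone of 2 genes was lost from those 2-fold higher in the unstimulated knockout, leaving 1, under a floor of log2 8, quantile normalisation, 64 added to the linear values or values under log2 6 set to 6. The count of genes with a larger knockout LPS difference, 5, was 2 with 64 added and 3 with values set to 6. In most cases the cause was not tested. By construction, a higher floor tests fewer genes, and 64 or a floor shrinks differences from background readings. A factor left out of the model has its effect counted as error.

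Median centring, no floor and a prior without trend changed the side of the threshold of 0 of the 10 genes for either effect. No paired analysis was possible because each group held 1 array, and an array could not be left out because the model then has no residual degree of freedom.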
